A study of Mus musculus with 8 samples.

Results

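The Hippo pathway was examined through 10 genes of the deposited expression table: the coactivators Yap1 (YAP) and Wwtr1 (TAZ), their DNA-binding partners Tead1, Tead2, Tead3 and Tead4, the kinases Lats1 and Lats2, and the angiomotin-like proteins Amotl1 and Amotl2. They were taken by gene symbol, each matched 1 row, and they make up 10 of the 22274 genes in the table. All 10 passed the filter on low counts, which left 13533 genes for testing.

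As background, the Hippo pathway is a kinase relay that keeps YAP and TAZ out of the nucleus. The MST kinases activate LATS1 and LATS2, which phosphorylate YAP and TAZ so that these are held in the cytoplasm or degraded. Angiomotins bind YAP and TAZ and promote their retention. When the relay is off, YAP and TAZ enter the nucleus and bind TEAD factors on DNA, and in fibroblasts this complex switches on matrix and cytoskeletal genes, as well as the genes of LATS2 and AMOTL2 in a negative feedback loop. Much of this regulation acts on the phosphorylation and location of the proteins, which RNA counts do not measure.

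RNA-seq was performed on primary cardiac fibroblasts of mice, the matrix-producing cells of the heart, all treated with TGF-β, a cytokine that turns fibroblasts into contractile myofibroblasts. There were 4 libraries labelled GFP, the control vector, and 4 labelled OEIRF7, for overexpression of IRF7, an interferon regulatory factor. The comparison asks what differs with the IRF7 vector in TGF-β-treated cells, and no library without TGF-β was analysed here. The study's text names an adenovirus with a FLAG tag, whose listed construct carries the human gene under the CMV promoter with EGFP, whereas the deposited design names an adeno-associated virus, whose listed construct carries mouse Irf7 under the periostin promoter. Strain, age and the number of mice or cultures behind the 8 libraries were not given in the sources used here for this experiment, so p-values measure the spread between these libraries, which may be technical.

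Total counts ran from 24888589 to 27095611 in the GFP libraries and from 24454801 to 28658826 in the OEIRF7 libraries. Levels are given as CPM, counts scaled to the size of the library with TMM factors, and, where different genes are set side by side, as the authors' FPKM, which also divide by transcript length. Log2 fold changes are OEIRF7 over GFP from edgeR's quasi-likelihood test on the counts, with Benjamini-Hochberg adjustment over all genes tested. Mouse Irf7 had 107, 147, 92.0 and 126 CPM in GFP replicates 1 to 4 and 14.9, 14.5, 14.9 and 16.4 CPM in OEIRF7 replicates 1 to 4. It was therefore lower under the label OEIRF7 (log2 fold change of -2.96 with a standard error, SE, of 0.12, edgeR adjusted p = 7.7e-11). With a human transgene these counts do not check the labels, with a mouse transgene they go against them, and all directions below are between the libraries as labelled. Of 8 fibroblast markers 5 were lower and 1 higher, where 29.9% and 29.0% of all genes tested were so. Their summed level, 33.6% of it the collagen gene Col1a1, was 13385 to 14101 CPM in the GFP libraries and 11785 to 12378 CPM in the OEIRF7 libraries. Col1a1, Col1a2, Col3a1 and Postn of this list are myofibroblast markers in the paper, so the list cannot tell fibroblast number from the change to myofibroblasts. Of 6 macrophage markers 4 were higher and 0 lower, and their sum, 70.3% of it Lyz2, was 256 to 306 CPM against 325 to 355 CPM. Of 4 mural cell markers tested 2 were higher and 1 lower, with a sum of 65.7 to 72.3 CPM against 77.3 to 97.3 CPM. Of 5 epicardial markers 2 were higher and 1 lower, although their sum, 51.5% of it Upk3b, was lower at 58.3 to 65.8 CPM than the 72.4 to 88.6 CPM of the GFP libraries. Of 6 endothelial markers 3 were higher and 1 lower, with 203 to 216 CPM against 206 to 231 CPM. Of 7 cardiomyocyte markers only Tnnt2 was tested, which was lower and held 95.2% of a sum of 9.92 to 13.6 CPM against 7.54 to 9.77 CPM. None of these lists had a marker at 0 in all libraries. The part that these differences have in the results below was not tested.

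Of the 10 genes, 6 were lower under OEIRF7 (Yap1, Wwtr1, Tead1, Tead3, Lats1 and Amotl2), 2 were higher (Tead2 and Amotl1) and 2 did not pass the test (Tead4 and Lats2). The differences were wide in number over the whole transcriptome as well: 58.9% of all genes tested had an adjusted p under 0.05, with 29.9% lower and 29.0% higher. The share of lower genes among the 10 was 60.0% and that of higher genes 20.0%, and their median log2 fold change was -0.24, against 0.00 over all genes tested. With the fold limits of the study's methods added, a fold change over 1.5 or under 0.66, 2 of the 10 were lower (Tead1 and Amotl2) and 0 higher, where the whole table had 9.35% lower and 9.26% higher, 18.6% in all. In 8 of the 10 genes the groups did not overlap in CPM, which was so in 53.8% of all genes tested. In bulk RNA, fewer cells that express a gene and less RNA per cell cannot be told apart.

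**Figure D1:**
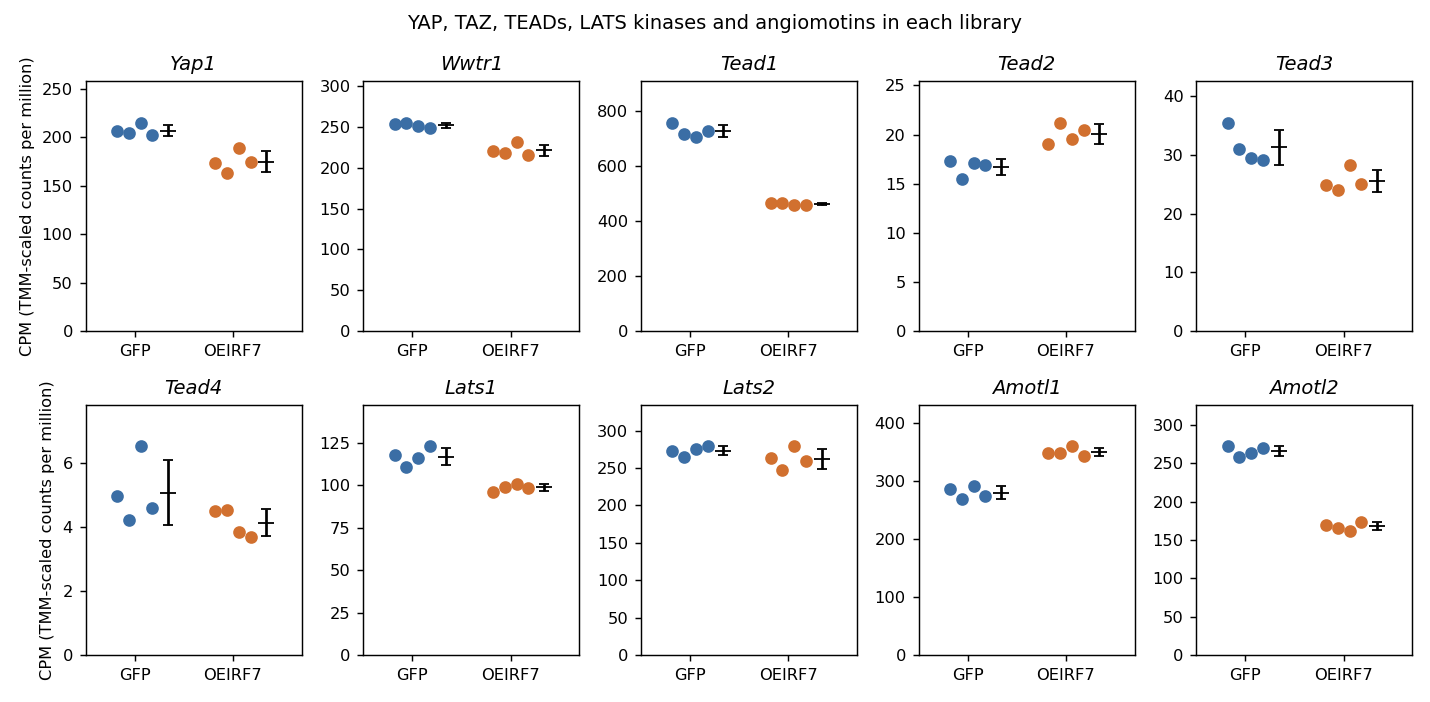
CPM of each of the 10 genes (vertical axes, each from 0) in the 4 GFP libraries (blue) and the 4 OEIRF7 libraries (orange), with points in replicate order and bars for the mean and SD. Tead1 and Amotl2 show the widest gaps between the groups, Tead2 and Amotl1 are higher under OEIRF7, and the points of Tead4 and Lats2 overlap.

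The coactivators were considered first, with the promoters that carry the pathway's own binding letters. In GRCm38 coordinates, Yap1 spans 7931999 to 8004596 on chromosome 9 (minus strand) and Wwtr1 spans, on the minus strand of chromosome 3, 57455649 to 57575910. The TEAD factors recognise the letters GGAATG, which were searched on both strands in RefSeq promoters of GRCm38.p6, from 250 bases before to 50 after each start site. Of the 10 genes, 8 were found there with 12 promoters, while Tead1 and Tead4 had no entry and were not searched. Of these 8 genes, 5 held the letters in at least 1 promoter (Yap1, Wwtr1, Tead3, Lats2 and Amotl2). Of all 32851 promoters listed there, 14.7% held them, and of all 27025 genes 16.6%. In the lists used further below, 9 of 21 other pathway genes searched held them. So did 7 of 15 target genes searched, Lats2 and Amotl2 among them. The promoters of the coactivators, of Amotl2, one of the 2 genes past the fold limit, and of the YAP target Ankrd1 are shown 5′ to 3′ along the gene, with the TEAD letters of either strand in capitals. Yap1 is at chr9:8004547-8004846 (minus strand), Wwtr1 at chr3:57575861-57576160 (minus strand), Amotl2 at chr9:102717554-102717853 (plus strand) and Ankrd1 at chr19:36119795-36120094 (minus strand).
Yap1: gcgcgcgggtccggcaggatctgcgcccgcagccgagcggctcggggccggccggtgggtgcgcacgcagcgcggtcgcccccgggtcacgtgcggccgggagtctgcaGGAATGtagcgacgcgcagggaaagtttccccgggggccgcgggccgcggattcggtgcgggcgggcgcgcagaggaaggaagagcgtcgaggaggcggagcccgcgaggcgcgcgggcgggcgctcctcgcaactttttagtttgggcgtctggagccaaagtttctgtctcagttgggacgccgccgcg
Wwtr1: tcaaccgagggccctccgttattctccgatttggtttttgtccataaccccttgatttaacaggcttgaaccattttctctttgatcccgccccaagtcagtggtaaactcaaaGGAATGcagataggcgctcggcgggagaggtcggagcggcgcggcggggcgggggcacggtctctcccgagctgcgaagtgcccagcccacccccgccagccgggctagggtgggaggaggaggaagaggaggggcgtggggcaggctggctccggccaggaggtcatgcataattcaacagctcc
Amotl2: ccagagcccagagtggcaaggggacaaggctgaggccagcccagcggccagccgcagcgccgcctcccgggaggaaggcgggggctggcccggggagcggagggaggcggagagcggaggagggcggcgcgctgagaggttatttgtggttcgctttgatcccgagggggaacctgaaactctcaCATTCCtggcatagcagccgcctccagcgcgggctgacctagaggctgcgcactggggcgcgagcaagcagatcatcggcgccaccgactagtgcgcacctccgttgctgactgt
Ankrd1: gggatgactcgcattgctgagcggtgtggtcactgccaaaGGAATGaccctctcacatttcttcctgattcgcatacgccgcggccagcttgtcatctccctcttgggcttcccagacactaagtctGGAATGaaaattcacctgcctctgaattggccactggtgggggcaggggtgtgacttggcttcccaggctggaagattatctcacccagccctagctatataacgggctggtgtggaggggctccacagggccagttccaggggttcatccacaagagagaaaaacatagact

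The letters begin 141 bases before the start site in Yap1, 136 bases before it in Wwtr1 and 65 bases before it in Amotl2, where they are on the opposite strand. Ankrd1 holds them at 210 and 123 bases before its start. Neither the AP-1 letters TGANTCA, which read the same on both strands, nor the IRF letters, GAAA followed after 2 bases of any kind by GAAA again, were found on either strand in these promoters. Among the 8 genes searched, no promoter held the AP-1 letters and only Lats2 held the IRF letters. Those of Lats2 lie 12 bases before the second of its listed start sites. Of all promoters 7.81% and 3.44% held the AP-1 and IRF letters, and of all genes 8.97% and 3.99%. A match describes letters only, and says nothing of binding.

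Yap1 had 206, 204, 215 and 202 CPM in GFP replicates 1 to 4 and 173, 163, 189 and 174 CPM in OEIRF7 replicates 1 to 4. Every OEIRF7 library was thus below every GFP library, with replicate 3 the highest of either group. The log2 fold change was -0.25 (SE 0.042, edgeR adjusted p = 0.00016). Wwtr1, the paralog of Yap1, had 253, 255, 251 and 248 CPM in the GFP libraries and 221, 218, 231 and 215 CPM in the OEIRF7 libraries. The groups did not overlap here either, and the difference was small beside the level, with a log2 fold change of -0.18 (SE 0.032, edgeR adjusted p = 0.00019). In fold terms OEIRF7 was at 0.843 of GFP for Yap1 and at 0.880 for Wwtr1, neither of which reached the fold limit of 0.66.

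Per length, the coactivators were at like levels. Yap1 had 53.3 ± 2.05 FPKM (SD, n = 4) and Wwtr1 53.1 ± 0.678 FPKM (SD, n = 4) in the GFP libraries, and their ranges overlapped. Under OEIRF7 they had 45.8 ± 2.06 and 47.6 ± 1.34 FPKM (SD, n = 4), and again overlapped. Wwtr1 held 49.9 ± 1.03% of their summed FPKM in the GFP libraries and 51.0 ± 0.936% in the OEIRF7 libraries (SD, n = 4 per group).

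Among the TEAD factors, which give the complex its DNA binding, Tead1 stood apart in level and in difference. It lies on the plus strand of chromosome 7 from 112679318 to 112906807, and had 756, 714, 706 and 727 CPM in the GFP libraries and 466, 466, 459 and 459 CPM in the OEIRF7 libraries. The OEIRF7 libraries lay between 459 and 466 CPM, far below the lowest GFP library at 706 CPM. The log2 fold change was -0.65 (SE 0.030, 95% interval -0.71 to -0.59, edgeR adjusted p = 1.9e-10), a level of 0.637 times that of GFP.

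Tead2, a paralog on the plus strand of the same chromosome from 45215753 to 45233644, differed in the other direction. It had 17.3, 15.5, 17.1 and 16.9 CPM in the GFP libraries and 19.0, 21.2, 19.5 and 20.5 CPM in the OEIRF7 libraries, without overlap. The log2 fold change was 0.26 (SE 0.062, edgeR adjusted p = 0.0021). Cd37 overlaps Tead2 on the opposite strand, and the strand setting of the counting was not given in the sources used here. Cd37 had 37 to 61 counts in a library and Tead2 387 to 614. The part that this overlap has in the counts of Tead2 was not tested.

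Tead3, on the minus strand of chromosome 17 from 28331671 to 28350817, had 35.5, 31.1, 29.5 and 29.1 CPM in the GFP libraries and 24.9, 24.1, 28.3 and 25.0 CPM in the OEIRF7 libraries. In CPM the highest OEIRF7 library, replicate 3, came close to the lowest GFP library without reaching it. In FPKM the groups overlapped, with OEIRF7 replicate 3 at 11.13 and GFP replicate 4 at 11.08. The log2 fold change of Tead3 was -0.29 (SE 0.071, edgeR adjusted p = 0.0023). Tead4, on the minus strand of chromosome 6 from 128224288 to 128300823, was the least abundant, with 4.96, 4.21, 6.52 and 4.58 CPM against 4.50, 4.52, 3.85 and 3.69 CPM. Its groups overlapped, and with 91 to 161 counts in a library its log2 fold change of -0.29 had a 95% interval from -0.60 to 0.02 (SE 0.15, edgeR adjusted p = 0.10). The interval of Tead4 thus held the value of Tead3 as well as 0. Without GFP replicate 2 the value of Tead4 was -0.37 with an adjusted p of 0.047 from edgeR, and without GFP replicate 3, its highest library, it was -0.15 with an adjusted p of 0.37.

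Summed over the 4 genes, TEAD transcripts had 117 ± 4.32 FPKM in the GFP libraries and 83.6 ± 0.914 FPKM in the OEIRF7 libraries (SD, n = 4 per group), and the ranges, 113 to 123 and 82.9 to 84.8, did not overlap. Tead1 held 81.6 ± 0.594% of the sum in the GFP libraries and 74.5 ± 0.742% in the OEIRF7 libraries. The share of Tead2 was 6.61 ± 0.167% against 11.5 ± 0.995%, and that of Tead3 10.2 ± 0.641% against 12.1 ± 0.709%. Tead4 held 1.60 ± 0.350% and 1.90 ± 0.211%, which overlapped. Tead3 and Tead2 were apart in the GFP libraries, with 12.0 ± 1.10 and 7.75 ± 0.172 FPKM, and overlapped under OEIRF7, with 10.1 ± 0.675 and 9.55 ± 0.828 FPKM (SD, n = 4). The summed FPKM of Yap1 and Wwtr1 were 0.909 ± 0.0387 times the TEAD sum in the GFP libraries and 1.11 ± 0.0342 times in the OEIRF7 libraries (SD, n = 4). These sums are descriptions and were not tested.

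**Figure D2:**
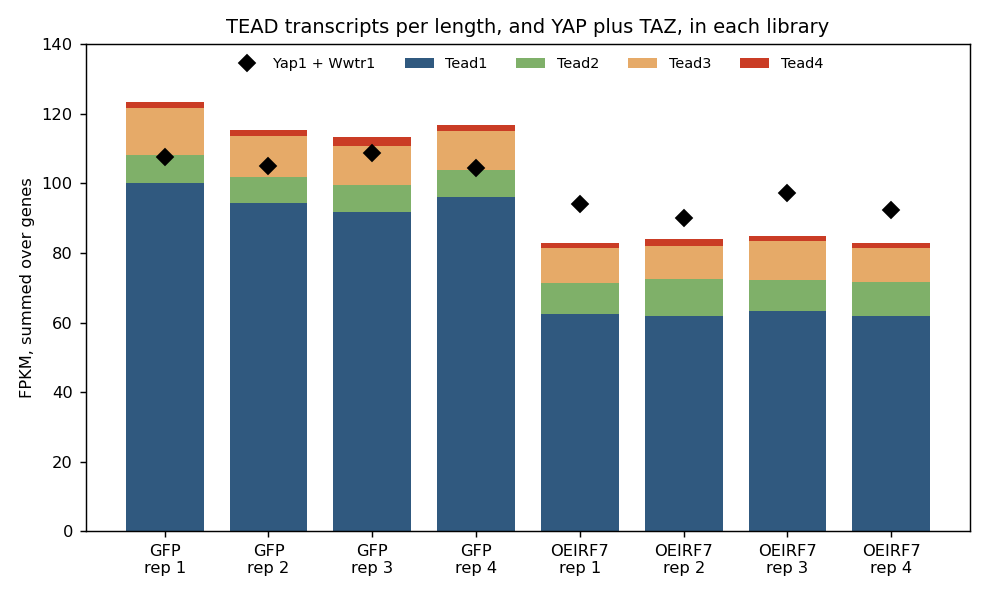
FPKM (vertical axis) of the 4 TEAD genes stacked for each of the 8 libraries (horizontal axis), with diamonds for the summed FPKM of Yap1 and Wwtr1. The stacks reach 113 to 123 FPKM in the GFP libraries and 82.9 to 84.8 FPKM in the OEIRF7 libraries, and the diamonds lie under the top of every GFP stack and above every OEIRF7 stack.

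The LATS kinases phosphorylate YAP and TAZ and so close the relay. Lats1, on the plus strand of chromosome 10 from 7681214 to 7716460, had 118, 111, 116 and 123 CPM in the GFP libraries and 96.4, 99.2, 101 and 98.7 CPM in the OEIRF7 libraries. The groups were apart, and the log2 fold change was -0.24 (SE 0.038, edgeR adjusted p = 6.4e-05). Lats2, on the minus strand of chromosome 14 from 57689662 to 57758388, had 273, 265, 276 and 279 CPM against 264, 247, 279 and 260 CPM. Its groups overlapped, with OEIRF7 replicate 3 level with the highest GFP library.

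The log2 fold change of Lats2 was -0.06 (SE 0.038, 95% interval -0.14 to 0.02, edgeR adjusted p = 0.20). Without OEIRF7 replicate 3 it was -0.09 with an adjusted p of 0.040 from edgeR, and without OEIRF7 replicate 2 it was -0.03 with an adjusted p of 0.52. On log2(FPKM + 1) limma gave -0.17 with an adjusted p of 0.040, and on log2(FPKM + 0.1) without a filter -0.17 with an adjusted p of 0.058. In FPKM the levels of Lats2 were 67.3 ± 4.02 and 59.9 ± 4.98 (SD, n = 4), above those of Lats1, with 16.5 ± 0.875 and 14.1 ± 0.407 (SD, n = 4). Gm49361, an annotated gene on the same strand that overlaps Lats2, had at most 30 counts in a library, and reads that fall on both genes may have been left out by the counting.

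The angiomotin-like genes moved apart. Amotl1, on the minus strand of chromosome 9 from 14541966 to 14645056, had 286, 268, 291 and 273 CPM in the GFP libraries and 347, 348, 359 and 343 CPM in the OEIRF7 libraries. All OEIRF7 libraries were above all GFP libraries, and the log2 fold change was 0.32 (SE 0.034, edgeR adjusted p = 1.3e-06). Amotl2, on the plus strand of chromosome 9 from 102716672 to 102733418 and a known target of YAP, had 272, 258, 264 and 270 CPM against 170, 166, 162 and 174 CPM. The gap between the groups was wider than either group's range, and the log2 fold change was -0.66 (SE 0.034, 95% interval -0.74 to -0.59, edgeR adjusted p = 7e-10), a level of 0.631 times that of GFP.

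**Figure D3:**
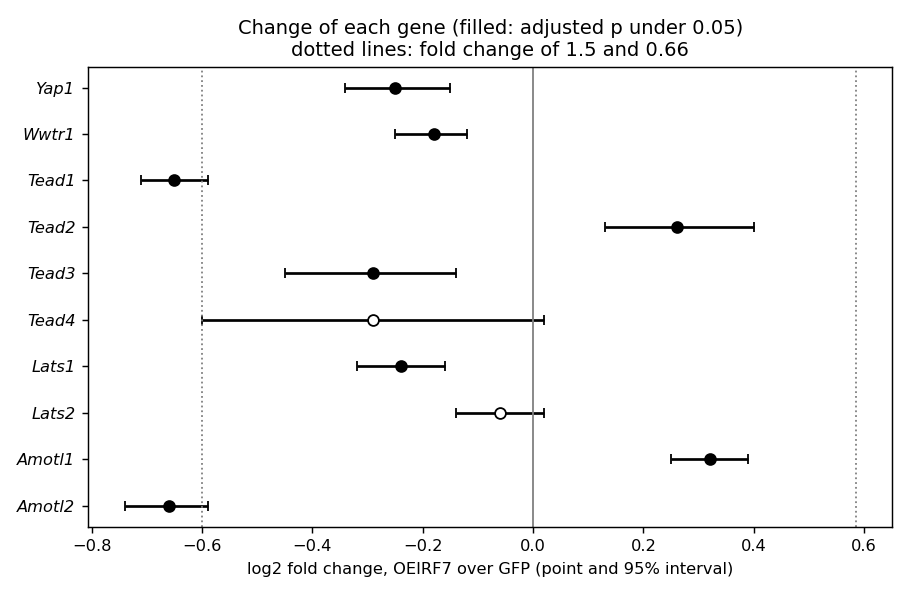
Log2 fold change, OEIRF7 over GFP (horizontal axis), of each of the 10 genes with its 95% interval from edgeR, filled where the adjusted p was under 0.05. Tead1 at -0.65 and Amotl2 at -0.66 lie past the dotted line of the 0.66-fold limit, Amotl1 at 0.32 and Tead2 at 0.26 lie to the right of 0, and the intervals of Tead4 and Lats2 cross 0.

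Whether paralogs differed unequally was tested with the ratio of their counts within a library, which does not depend on the scaling, in 3 pairs. Amotl2 had 0.951, 0.961, 0.907 and 0.989 counts per count of Amotl1 in GFP replicates 1 to 4 and 0.490, 0.478, 0.451 and 0.509 in OEIRF7 replicates 1 to 4. The groups were well apart, and the mean log2 ratio differed by -0.98 between them (two-sided exact permutation test, p = 0.029 and 0.043 adjusted over the 3 pairs, where 0.029 is the lowest possible with 4 per group). Amotl1 was higher and Amotl2 lower without overlap, so this pair had to reach that lowest p, and the test adds nothing to those results. The ratio of Lats2 to Lats1 was 2.32, 2.39, 2.38 and 2.27 in the GFP libraries and 2.74, 2.48, 2.76 and 2.64 in the OEIRF7 libraries, a difference of 0.18 on the log2 scale without overlap (exact permutation test, p = 0.029, adjusted 0.043). With FPKM in place of counts this difference was 0.05 (exact permutation test, adjusted p = 0.51). The ratio of Wwtr1 to Yap1 overlapped between the groups, at 1.17 to 1.25 and 1.23 to 1.34, and its difference of 0.06 did not pass (exact permutation test, p = 0.20).

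**Figure D4:**
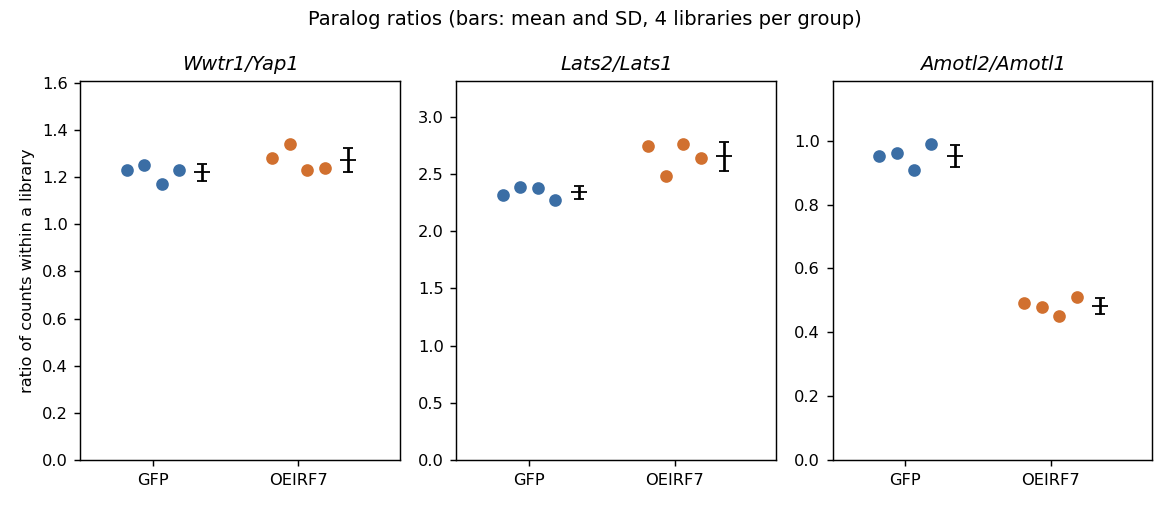
Ratio of the counts of a pair of paralogs within each library (vertical axes, each from 0) for the GFP libraries (blue) and the OEIRF7 libraries (orange), with bars for the mean and SD of 4 libraries. The ratio of Amotl2 to Amotl1 lies at 0.907 to 0.989 in the GFP libraries and at 0.451 to 0.509 in the OEIRF7 libraries, that of Lats2 to Lats1 is shifted up slightly, and that of Wwtr1 to Yap1 overlaps.

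Per length the order of the 10 genes was not the same in the groups. In the GFP libraries Tead1 was the most abundant with 95.6 ± 3.58 FPKM, followed by Amotl2 with 71.9 ± 1.86 FPKM (SD, n = 4) and Lats2, and the ranges of Amotl2 and Lats2 overlapped. Yap1 and Wwtr1 came next and overlapped, then Amotl1 with 37.5 ± 2.57 FPKM (SD, n = 4), Lats1, Tead3, Tead2 and Tead4, each apart from its neighbour. In the OEIRF7 libraries Tead1 had 62.4 ± 0.625 FPKM and overlapped with Lats2, while Amotl1 had 49.5 ± 1.52 FPKM and Amotl2 46.2 ± 2.99 FPKM (SD, n = 4). There Amotl1, Wwtr1, Amotl2 and Yap1 formed a run in which each overlapped with the next, and below them only Tead3 and Tead2 overlapped.

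The rest of the pathway was examined through 25 genes, of which 23 were tested and Vgll1 and Vgll2 had no count in any library. Of the 23, 12 were lower and 5 higher, and 6 did not pass the test, which is 52.2% lower and 21.7% higher beside the 29.9% and 29.0% of all genes, with a median log2 fold change of -0.14. Past the fold limits 2 were lower (Wwc1 and Ptpn14) and 1 higher (Map4k4), shares of 8.70% and 4.35% beside 9.35% and 9.26% of all genes. Of the core kinases and their adaptors, Sav1 and Mob1a were lower and Mob1b higher, and the MST kinases themselves, Stk3 and Stk4, did not pass, with log2 fold changes of -0.10 and -0.08.

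Among the upstream activators, which switch the LATS kinases on, the largest difference was in Wwc1, the scaffold protein KIBRA. It had 37.2, 35.3, 36.5 and 34.6 CPM in the GFP libraries and 15.0, 13.7, 16.4 and 15.0 CPM in the OEIRF7 libraries. These groups were far apart, with a log2 fold change of -1.26 (SE 0.060, edgeR adjusted p = 3.2e-10). Its paralog Wwc2 had 454 ± 9.81 CPM against 340 ± 9.49 CPM (SD, n = 4), a log2 fold change of -0.42. Map4k4, a kinase that acts on LATS beside the MST kinases, had 500, 471, 516 and 487 CPM in the GFP libraries and 853, 859, 947 and 805 CPM in the OEIRF7 libraries. It was the gene of this list with the largest rise, a log2 fold change of 0.81 (SE 0.045, edgeR adjusted p = 1.3e-09). Frmd6, a membrane-linked activator, was also higher, with 67.1 ± 4.93 CPM against 93.5 ± 3.84 CPM (SD, n = 4) and a log2 fold change of 0.48.

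Beside the angiomotin-like proteins, other proteins of the list bind YAP or TEAD directly. Amot, the founding angiomotin, had 36.8 ± 2.42 CPM in the GFP libraries and 26.2 ± 1.61 CPM in the OEIRF7 libraries (SD, n = 4), a log2 fold change of -0.49 in the same direction as Amotl2 and opposite to Amotl1. Ptpn14, a phosphatase that holds YAP in the cytoplasm and is itself a YAP target, had 206, 212, 211 and 227 CPM against 141, 140, 130 and 141 CPM, a log2 fold change of -0.63 (SE 0.040, edgeR adjusted p = 5.5e-09). Vgll3, which binds TEADs in place of YAP, had 523 ± 13.6 CPM against 385 ± 8.93 CPM (SD, n = 4), a log2 fold change of -0.44. Vgll4, a TEAD-binding repressor, did not pass, with a log2 fold change of 0.02. Dchs1, an atypical cadherin, was higher with 8.97 ± 1.39 CPM against 12.9 ± 0.362 CPM (SD, n = 4), a log2 fold change of 0.52.

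The output of the pathway was examined through 22 genes given in the literature as YAP and TAZ targets shared by many tumour types. Whether YAP and TAZ control them in these fibroblasts was not tested. All 22 passed the filter on low counts. Of these, 14 were lower and 7 higher, and Lats2 alone did not pass, shares of 63.6% and 31.8% beside 29.9% and 29.0% of all genes. Their median log2 fold change was -0.40, with values from -1.55 to 1.33. Past the fold limits 9 were lower and 5 higher, shares of 40.9% and 22.7% beside 9.35% and 9.26%. Without Amotl2 and Lats2, which are among the 10 genes above, 13 were lower and 7 higher of 20. Ptpn14 is counted both here and among the other pathway genes. Targets thus differed in both directions, and many of them respond to TGF-β and other signals as well.

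The best known targets are the matricellular genes Ccn1 (CYR61) and Ccn2 (CTGF) and the ankyrin repeat gene Ankrd1. Ankrd1 had 904, 909, 878 and 954 CPM in the GFP libraries and 406, 444, 375 and 432 CPM in the OEIRF7 libraries. Its level was thus 0.455 times that of GFP, a log2 fold change of -1.14 (SE 0.047, edgeR adjusted p = 7.7e-11). Ccn1 had 603, 591, 580 and 627 CPM against 481, 513, 449 and 522 CPM, without overlap, and a log2 fold change of -0.29 (SE 0.044, edgeR adjusted p = 5e-05). Ccn2 had 2620, 2700, 2535 and 2681 CPM against 2376, 2476, 2153 and 2550 CPM. The highest OEIRF7 library of Ccn2 was above the lowest GFP library, and its log2 fold change of -0.14 had an adjusted p of 0.011 from edgeR. On log2(FPKM + 1) limma gave -0.12 for Ccn2 with an adjusted p of 0.084.

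Of the other targets, Tgfb2, a TGF-β ligand, had the largest fall, from 91.5 ± 5.33 to 31.2 ± 1.77 CPM (SD, n = 4), a log2 fold change of -1.55 (edgeR adjusted p = 1.3e-11). Igfbp3, which binds insulin-like growth factors, had a log2 fold change of -0.91. The secreted matrix protein gene Ccdc80 had -0.87 and Asap1, an ARF GTPase-activating protein, had -0.74. Among the targets that were higher, Gadd45a, a DNA damage-inducible gene, rose from 12.6 ± 1.13 to 31.7 ± 1.69 CPM (SD, n = 4), a log2 fold change of 1.33 (edgeR adjusted p = 7.8e-10). Dock5, a guanine nucleotide exchange factor, had a log2 fold change of 1.15 and the transcription factor Foxf2 0.88. In Foxf2 replicate 3 of the OEIRF7 libraries, at 24.6 CPM, was above the 15.0 to 16.9 CPM of the others.

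**Figure D5:**
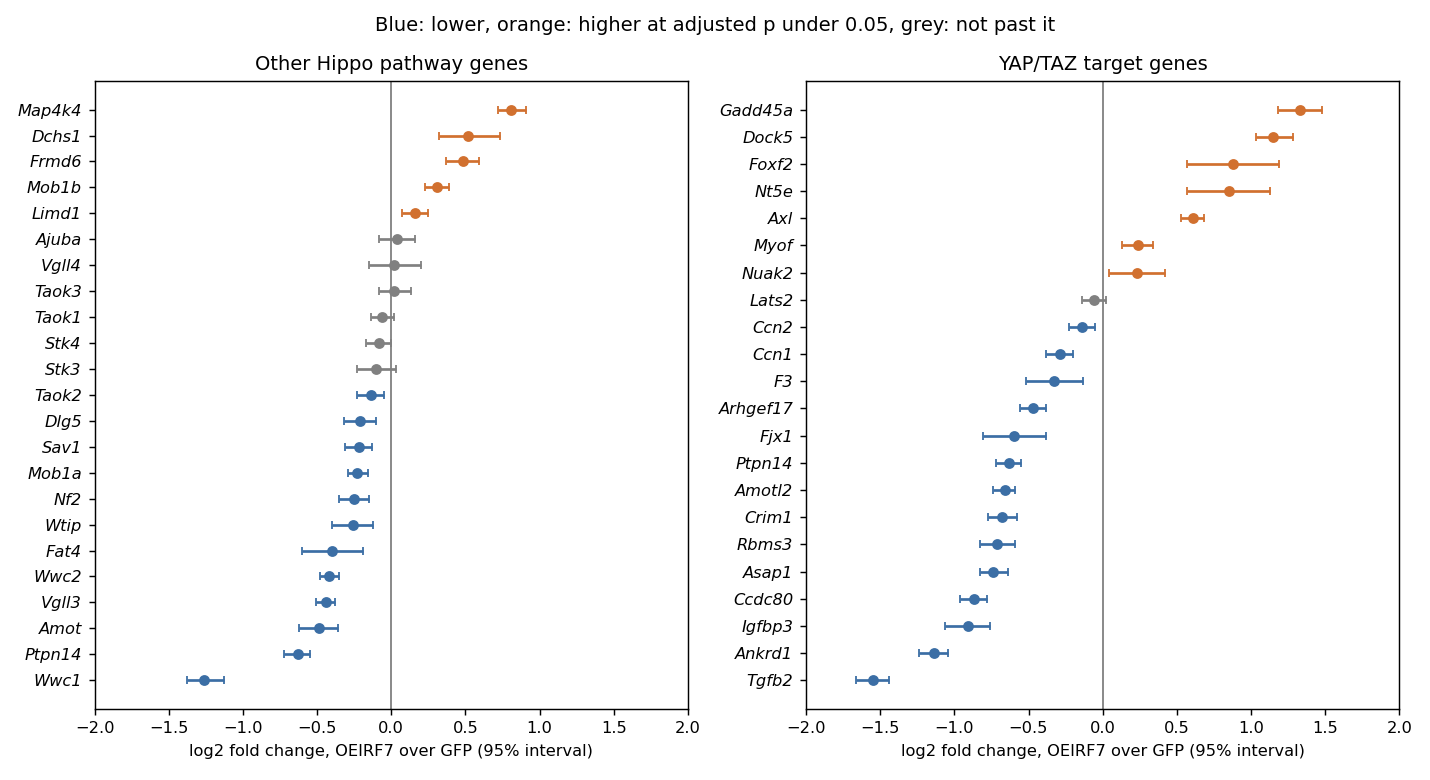
Log2 fold change, OEIRF7 over GFP (horizontal axes), with 95% intervals from edgeR, of the 23 other Hippo pathway genes (left) and the 22 target genes (right) that were tested, in blue where lower, orange where higher and grey where the adjusted p was not under 0.05. The targets run from -1.55 for Tgfb2 to 1.33 for Gadd45a, and the other pathway genes from -1.26 for Wwc1 to 0.81 for Map4k4.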

How the data were processed

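Per the paper's methods, reads were trimmed with Trimmomatic and mapped to GRCm38 with HISAT2. The deposited raw counts per gene were made by the authors with HTSeq-count, and are joined by FPKM from Cufflinks, rounded to 2 decimals. Tool versions and the strand setting are not given in the sources used here, and the labels and the paper name different library kits. The deposited mean, log2 fold change, p-value and FDR columns hold the authors' own comparison and were not used. In the file, 121 symbols carry the letters GFP, so 22219 of 22274 genes were named by Ensembl identifier from GENCODE M21, which also gave coordinates.

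Counts were tested in R 4.3.3 with edgeR 4.0.16 (filterByExpr, TMM with factors from 0.989 to 1.01, glmQLFit and glmQLFTest without covariates). The standard error is the size of the log2 fold change over the square root of F. Depth was close between libraries, and replicates of a group differed beyond sampling noise in every pair (chi-square per degree of freedom 2.91 to 9.94). All genes named for their values are the 10 genes, Irf7, Ccn1, Ccn2, Ankrd1 and, from each list, up to 8 genes with the largest change among those past an adjusted p of 0.05 with a mean of at least 5 CPM and no overlap. Others were named after their values were seen. The members and lists were chosen with earlier results of these data known. The replicate numbers were not taken as pairs. Alternatives used DESeq2 1.42.0, limma 3.58.1 on log2 FPKM, other scalings and filters, the replicate number as a block, and each library left out.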

Additional observations from a re-analysis of the deposited data

Results flagged for a closer look

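A library stood far from the others of its group in 3 named genes, all of them OEIRF7 replicate 3. It was the lowest of the OEIRF7 libraries in Ptpn14, at 130 CPM, where its gap to the nearest library was 0.876 of the group's range. It was the lowest in Tgfb2, at 28.6 CPM with a gap of 0.865 of the range, and the highest in Dock5, at 163 CPM with a gap of 0.906 of the range. Each is past Dixon's limit for 4 libraries, which chance alone passes in about 1 in 20 groups, and 64 groups were examined. No value of the 10 Hippo genes was among them. Short of that limit, OEIRF7 replicate 3 was still the highest of its group in Yap1, Wwtr1, Tead3, Lats1, Lats2 and Amotl1. It was the lowest in Amotl2, level with replicate 4 as lowest in Tead1, and between other libraries in Tead2 and Tead4. Without this library the log2 fold change of Foxf2 was 0.69, against 0.88 with it. Whether the library differs as a whole was not tested.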

How the results depend on the processing

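Of the 170 values that the 10 genes took under 17 other fits across all genes, 166 kept their direction and their side of the threshold, and none reversed. The exceptions were Lats2, which passed with -0.17 on log2(FPKM + 1) and on log2(FPKM + 0.1) with a filter and with -0.09 without OEIRF7 replicate 3, and Tead4, which passed with -0.37 without GFP replicate 2. On log2(FPKM + 0.1) without a filter Lats2 had -0.17 with an adjusted p of 0.058 from limma and did not pass. With 1 library left out, Lats2 ran from -0.09 to -0.03 and Tead4 from -0.37 to -0.15. On log2(FPKM + 1), where changes of low genes are understated, limma gave 765 higher and 636 lower genes past the fold limits, against 1253 and 1266. Under each FPKM fit 1 other Hippo gene was lower past the fold limits, against 2, and with 1 library left out 1 to 2 were higher. From FPKM, the log2 ratio differed by 0.05 for Lats2 to Lats1 and by -1.04 for Amotl2 to Amotl1, where the adjusted p was 0.086 because only this pair reached the smallest p. In counts, which are not divided by length, the shares of Tead1, Tead2, Tead3 and Tead4 in the TEAD sum were 93.2%, 2.15%, 4.01% and 0.652% in the GFP libraries and 90.3%, 3.91%, 4.99% and 0.807% in the OEIRF7 libraries.

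With the replicate number as a block, 4057 genes were higher and 4154 lower, against 3924 and 4045, and no call among the 10 genes changed. Same-numbered libraries deviated together only weakly, with correlations from 0.0792 to 0.138, each higher than with any other number, which is a hint from the data and not from the design. For the paralog ratios, sign flips within numbers cannot give a p below 0.12. Of the 10 genes Tead4 had the fewest counts, at most 161 in a library, and its GFP libraries ran from 4.21 to 6.52 CPM. What depth and the spread between libraries each add to its error was not tested.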

Other observations

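The MOB1 adaptors, which help the MST kinases to activate LATS, differed in opposite directions, as the angiomotin-like genes did. They were chosen after their values were seen. Mob1a had 275, 270, 273 and 277 CPM in the GFP libraries and 238, 235, 233 and 229 CPM in the OEIRF7 libraries, a log2 fold change of -0.23 (SE 0.029, edgeR adjusted p = 1e-05). Mob1b had 89.8, 88.6, 87.1 and 94.2 CPM against 111, 114, 113 and 109 CPM, a log2 fold change of 0.31 (SE 0.036, edgeR adjusted p = 3.4e-06). In neither gene did the groups overlap. Nf2, the membrane-linked tumour suppressor merlin, was lower with a log2 fold change of -0.25. The LATS-binding Limd1 was higher in counts, with a log2 fold change of 0.16 and 44.4 ± 1.30 against 49.6 ± 1.35 CPM, but its deposited FPKM went the other way, with 12.6 ± 2.62 against 10.3 ± 0.253 (SD, n = 4).

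Axl, a receptor tyrosine kinase among the targets, rose from 1104 ± 52.5 to 1682 ± 45.8 CPM (SD, n = 4), a log2 fold change of 0.61, whereas Crim1 and Rbms3 fell by 0.68 and 0.71 on the log2 scale.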
